A study of Mus musculus with 20 samples.

Results

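The 10 endothelial genes described here, genes typical of the cells that line blood vessels, were followed through 10 tissues of control and DHEA-treated mice, with the question whether Nostrin moves with the other 9. The genes are Nostrin, Nos3, Pecam1, Cdh5, Kdr, Flt1, Tek, Emcn, Vwf and Cldn5, and each was found once among the 24826 rows of the expression table. They were chosen by a list of symbols that was drawn up with earlier results of the same libraries known, so the difference between DHEA and control in these genes is described here and carries no test.

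Bulk RNA-seq of wild-type (WT) mice gave 20 libraries. Each of lung, heart, uterus, ovary, kidney, brain, spleen, thymus, liver and intestine gave 1 control and 1 DHEA library. The labels call the control treatment "sasame oil", and it is called control here. The labels spell the uterus "Utery". DHEA, dehydroepiandrosterone, is an adrenal steroid that tissues convert to androgens and oestrogens. The sources used here state no dose, route, length of treatment, age, sex or strain and no number of mice. They also do not tie tissues to animals or name the part taken of brain, heart or intestine. With 1 library in each group there is no replicate, and no p-value is given.

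Endothelial cells line all blood vessels. Nos3, endothelial nitric oxide synthase, makes the nitric oxide that relaxes the muscle of the vessel wall, and the protein Nostrin (nitric oxide synthase trafficking) binds Nos3 and takes part in moving it from the plasma membrane into the cell, where it is less active. Kdr and Flt1 are receptors for vascular endothelial growth factors, Tek (Tie2) is the receptor for angiopoietins, Cdh5 (VE-cadherin), Pecam1 and Cldn5 join endothelial cells to each other, Emcn is a sialomucin of the surface of capillary and venous endothelium, and Vwf is the secreted clotting protein that endothelium stores.

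Values are FPKM as deposited, fragments scaled to transcript length and library size, so that levels of different genes can be set side by side per length. The reads behind each value were recovered from the table, and the libraries held 13201204 reads (intestine, DHEA) to 20667989 reads (brain, control). A fold is a ratio of FPKM values, DHEA over control unless stated, and the range in brackets after it is an exact (Clopper-Pearson) 95% interval that covers counting error only. A log2 ratio is that of FPKM + 1, which understates the difference of low genes. A gene was counted as 2-fold higher or lower when this ratio reached 2-fold and the mean of both libraries was at least 5 FPKM. Marker genes of the 10 tissues were highest in their own libraries in 10 of 10 tissues. The share of reads from mitochondrial genes was 5.79% in control and 1.45% in DHEA uterus, 2.47% and 0.839% in spleen, 3.13% and 1.42% in lung and 16.1% and 10.7% in heart, and its part in the results was not tested.

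Nostrin was lower in the DHEA library of every tissue. In lung it was 29.7 FPKM in control and 25.3 FPKM in DHEA, and in intestine 19.1 and 12.2 FPKM. These were the tissues with the highest levels, and the only ones where the mean reached 5 FPKM. The next levels were those of spleen, with 5.23 FPKM in control and 2.84 FPKM in DHEA, liver, with 4.95 and 2.61 FPKM, and ovary, with 4.53 and 2.40 FPKM. In these 3 tissues the DHEA level was 0.543, 0.528 and 0.530 times the control level. Uterus had 3.10 FPKM in control and 1.22 FPKM in DHEA, heart 1.99 and 1.16 FPKM, and brain 1.90 and 1.18 FPKM. Thymus had 1.27 FPKM in control and 0.656 FPKM in DHEA, and kidney, with the lowest level, 0.966 and 0.654 FPKM. The control range, 0.966 to 29.7 FPKM, and the DHEA range, 0.654 to 25.3 FPKM, overlap almost wholly across tissues, and the difference appears within each tissue.

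**Figure D1:**
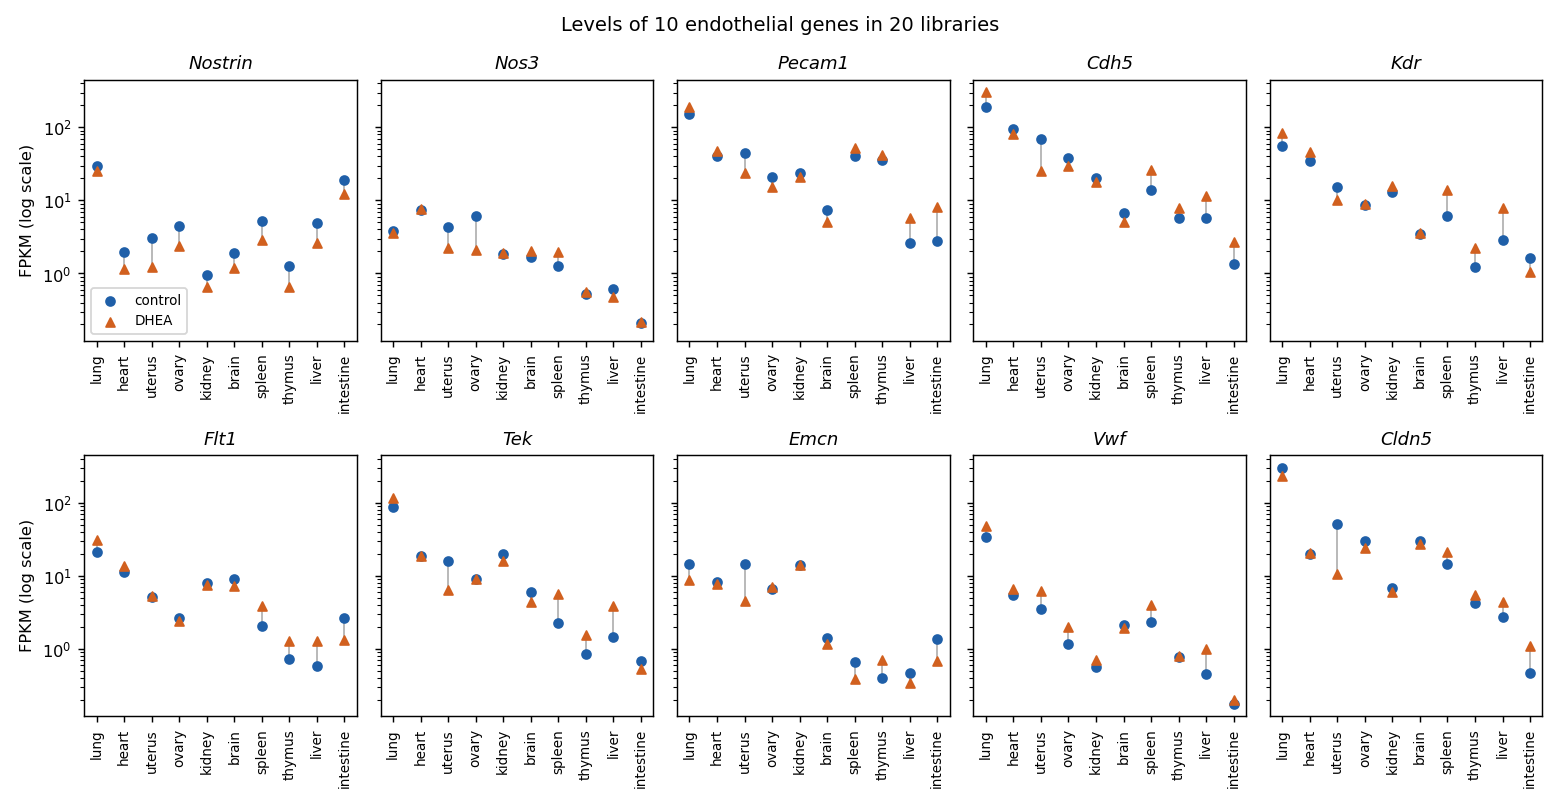
FPKM (log scale) of the 10 endothelial genes in each of 10 tissues, with the control library as a circle, the DHEA library as a triangle and a line joining the pair. In the Nostrin panel the triangle is below the circle in all 10 tissues, and intestine, at 19.1 and 12.2 FPKM, is the tissue with the second level, while in most other panels intestine is among the lowest.

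The size of the Nostrin difference varied between tissues. The control library was 2.55-fold over the DHEA library in uterus (1.78 to 3.70, from 94 and 47 reads), 1.94-fold in thymus (1.15 to 3.38, from 47 and 22 reads), 1.89-fold in ovary (1.41 to 2.55) and 1.89-fold in liver (1.44 to 2.51). Spleen had 1.84-fold (1.42 to 2.41), heart 1.72-fold (1.12 to 2.68), brain 1.61-fold (1.07 to 2.46) and intestine 1.56-fold (1.36 to 1.81, from 540 and 310 reads). Kidney had 1.48-fold (0.816 to 2.75), and with 33 and 19 reads its interval spans 1. Lung had the smallest ratio, 1.17-fold (1.07 to 1.29), from the most reads, 1036 and 804.

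On the log2 scale the Nostrin ratio ranged from -0.89 in uterus to -0.22 in lung, with a mean of -0.54 ± 0.22 (SD over 10 tissues, which are not replicates). The lung value depends on the scaling: once each library was brought to the same summed FPKM it was -0.0022, and in the authors' deposited table it was also -0.0022. The other 9 tissues stayed under 0 on every scaling tried. Among the 14833 genes that averaged 1 FPKM or more over the 20 libraries, 20 (0.135%) were lower in the DHEA library of all 10 tissues and 40 (0.27%) were higher in all 10, and of the 20 Nostrin had the lowest mean ratio. With each library scaled to the same summed FPKM, 8 of the 20 stayed lower in all 10 tissues, Nostrin among them, and 9 genes in all were lower. Nostrin was chosen with this known, so the rank is a description.

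The promoters of 3 genes are shown because Nostrin, lower in all 10 tissues, and the receptors Kdr and Tek, higher in spleen and liver, went different ways. The sequences are the 250 bases before the RefSeq start of the gene in GRCm38.p6, given 5′ to 3′ on the strand of the gene. The study's own processing notes name mm39, so these coordinates belong to the reference and not to the deposited table. Nostrin lies at chr2:69135550-69135799 on the plus strand, Tek at chr4:94739039-94739288 on the plus strand and Kdr at chr5:75978456-75978705 on the minus strand. Capitals mark the letters AGGAAG or CTTCCT, the core bound by ETS factors on either strand, and AGAACA or TGTTCT, the half-site of androgen and glucocorticoid receptors.
Nostrin: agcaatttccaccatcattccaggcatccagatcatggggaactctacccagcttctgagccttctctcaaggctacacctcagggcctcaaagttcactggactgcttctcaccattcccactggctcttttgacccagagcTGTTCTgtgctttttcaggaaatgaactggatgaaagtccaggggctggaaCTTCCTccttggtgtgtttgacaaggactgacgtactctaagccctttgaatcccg
Tek: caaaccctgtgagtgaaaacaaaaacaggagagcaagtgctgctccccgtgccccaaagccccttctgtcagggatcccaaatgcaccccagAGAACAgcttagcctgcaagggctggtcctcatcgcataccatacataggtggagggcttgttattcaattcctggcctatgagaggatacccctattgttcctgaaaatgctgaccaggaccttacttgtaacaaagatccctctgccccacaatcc
Kdr: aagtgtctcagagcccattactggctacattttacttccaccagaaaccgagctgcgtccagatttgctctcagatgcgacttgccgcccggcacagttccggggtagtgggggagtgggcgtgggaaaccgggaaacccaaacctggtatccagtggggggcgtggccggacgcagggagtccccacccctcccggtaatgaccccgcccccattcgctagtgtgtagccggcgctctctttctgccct
The table had a promoter for 6 of the 10 genes, which are Nostrin, Emcn, Tek, Kdr, Flt1 and Cldn5. The ETS core is in the promoters of 3 of these 6, Nostrin (bases -56 to -51, counted from the start), Emcn and Flt1, and in 29.5% of all 32851 promoters. The receptor half-site is in 2 of 6, Nostrin (-107 to -102) and Tek (-158 to -153), and in 16.1% of all promoters. Nostrin, which was lower in spleen and liver, and Tek, which was higher there, thus both hold these 6 letters. The SOX motif ACAAAG is in Tek (-26 to -21) and in 16.5% of all promoters. AGATAA (the motif of the GATA family, 9.99% of all), TGTTTAC (forkhead factors, 3.17%), ACGTG (hypoxia response, 16.6%) and the oestrogen receptor palindrome (0.0639%), each searched on both strands, are in 0 of the 6. No matches overlap each other in the printed windows. A match of letters is no evidence of binding, and a window without a match says nothing of the factor.

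Nostrin lay below the median of the other 9 genes in all 10 tissues, in uterus only just. In spleen the 9 others had a median log2 ratio of 0.58 and Nostrin -0.70, and in liver they had 0.53 and Nostrin -0.72. Thymus showed 0.29 against -0.46, and lung 0.41 against -0.22. In these 4 tissues Nostrin and the median of the others had opposite signs. Heart had 0.07 against -0.47 and intestine 0.01 against -0.61, also of opposite sign but with the median of the others near 0. The single genes behind these medians ran from -0.22 to 0.41 in heart and from -0.63 to 1.29 in intestine. Ovary had -0.12 against -0.70, brain -0.16 against -0.41 and kidney -0.06 against -0.25, with the same sign and Nostrin the lower. Uterus was the tissue where both were closest, with a median of -0.88 for the others and -0.89 for Nostrin. That closeness depends on the pseudocount: Nostrin minus the median was -0.01 there with 1 FPKM added, -0.36 with 0.1 FPKM added and -0.40 in the authors' deposited table.

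Nostrin was below the median of the others in 10 of 10 tissues, by a mean of 0.61 on the log2 scale (mean of Nostrin minus median -0.61, SD 0.41 over tissues, range -1.27 in spleen to -0.01 in uterus). Without uterus the mean was -0.68, and without spleen -0.54. All 9 other genes had a higher ratio than Nostrin in heart, spleen, thymus and liver, 8 of 9 in ovary, kidney, brain and intestine, 7 of 9 in lung and 5 of 9 in uterus. The fold of Nostrin divided by the geometric mean of the folds of the others, with its 95% counting interval, was 0.304 (0.230 to 0.403) in liver, 0.347 (0.266 to 0.452) in spleen and 0.36 (0.216 to 0.602) in thymus. It was 0.540 (0.357 to 0.818) in heart, 0.592 (0.482 to 0.727) in intestine, 0.614 (0.461 to 0.818) in ovary and 0.735 (0.668 to 0.808) in lung. These 7 intervals lie below 1. The intervals of the remaining 3 span 1: uterus 0.744 (0.523 to 1.06), brain 0.721 (0.485 to 1.07) and kidney 0.690 (0.391 to 1.21). In bulk tissue, fewer cells of a type and less RNA per cell cannot be told apart.

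**Figure D2:**
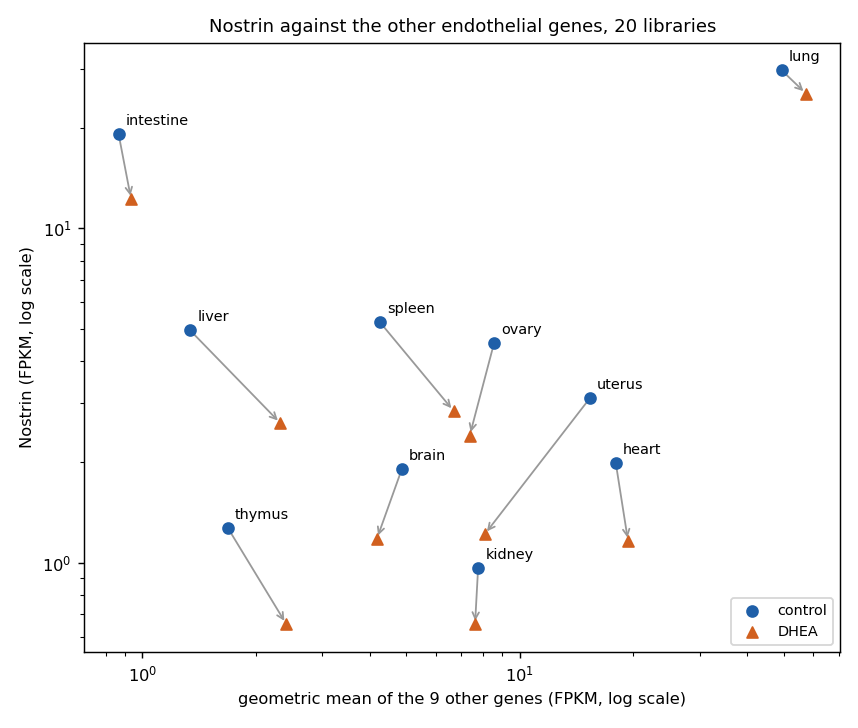
Nostrin FPKM against the geometric mean FPKM of the 9 other genes (both log scales) in 20 libraries, with an arrow from control (circle) to DHEA (triangle) in each tissue. All 10 arrows point down, those of lung, spleen, thymus and liver also point clearly to the right, and only the uterus arrow runs far to the left, from 15.3 to 8.08 FPKM.

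**Figure D3:**
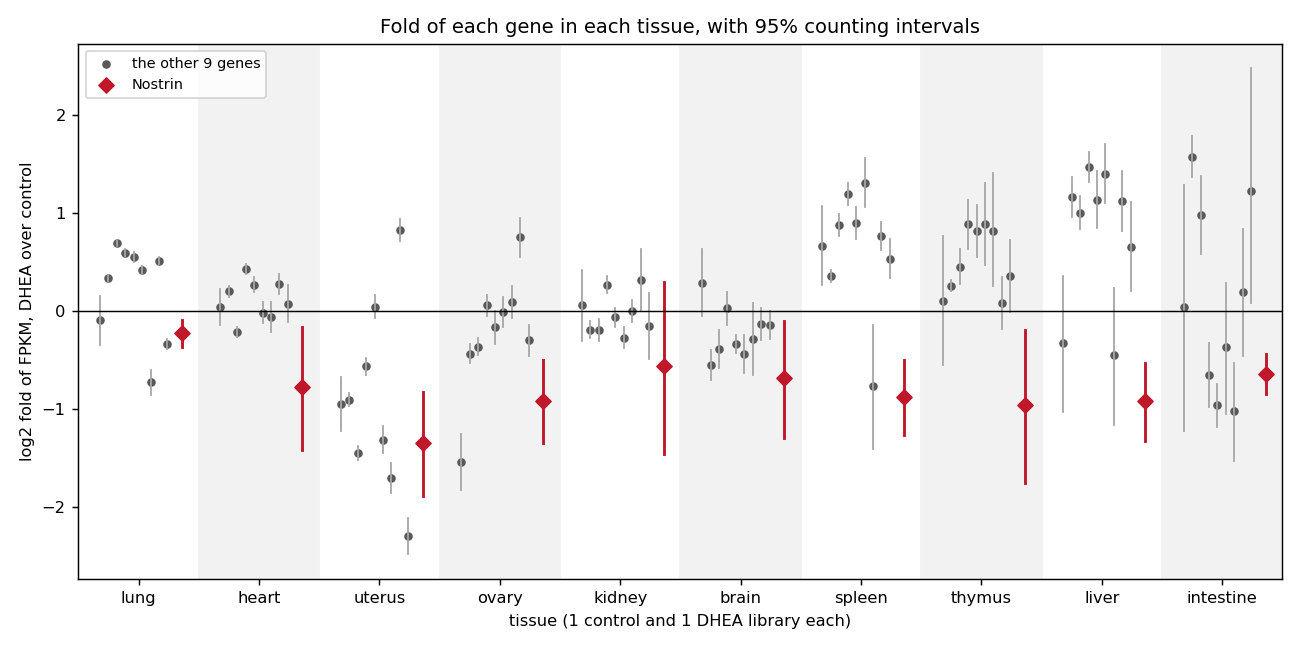
Log2 fold of FPKM, DHEA over control, of each gene in each tissue with 95% counting intervals. Grey points are, from left to right, Nos3, Pecam1, Cdh5, Kdr, Flt1, Tek, Emcn, Vwf and Cldn5, the red diamond is Nostrin, and it is under 0 in all 10 tissues, with an interval that reaches over 0 in kidney.

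A broader list of 30 other endothelial genes gave a similar picture. Of its members that averaged 1 FPKM or more in a pair, 29 of 29 had a higher ratio than Nostrin in spleen, 19 of 19 in thymus, 21 of 21 in liver and 15 of 15 in intestine. The counts were 29 of 30 in heart and in ovary, 22 of 29 in kidney, 21 of 24 in brain and 21 of 30 in lung. Uterus had the lowest share, 18 of 30. Among all genes at 5 FPKM or more, the share with a lower ratio than Nostrin was 1.59% in thymus and 3.22% in spleen. It was 1.73% in heart, 4.46% in ovary, 4.93% in liver and 8.9% in intestine. Uterus had 12.3%, kidney 17.8%, brain 19.97% and lung 25.5%. Most genes of any kind thus lay above Nostrin, so these counts, and those of the 9 others, do not set endothelial genes apart. The counts of the list use a lower minimum level than the shares of all genes, so they are not like for like.

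The level of Nostrin also had another order over tissues than that of the other genes. By the mean of both libraries Nostrin ran from lung (27.5 FPKM) and intestine (15.7 FPKM), each apart from its neighbours, through spleen, liver, ovary, uterus, heart, brain and thymus, whose neighbouring ranges overlap, to kidney (0.810 FPKM). The geometric mean of the 9 others ran from lung (53.4 FPKM) and heart (18.7 FPKM) through uterus (11.7 FPKM), ovary (7.96 FPKM), kidney (7.69 FPKM), spleen (5.48 FPKM), brain (4.53 FPKM), thymus (2.05 FPKM) and liver (1.83 FPKM) to intestine (0.900 FPKM), which was the lowest. In that order uterus and ovary, ovary and kidney, spleen and brain, and thymus and liver have ranges that overlap. In intestine Nostrin stood at 22.1 times this mean in control and 13.1 times in DHEA, the highest of the 20 libraries, against 0.0598 times in DHEA heart, the lowest. Single genes departed from that order: by the mean of both libraries Nos3 was highest in heart and Emcn in kidney, which overlapped lung, and Pecam1, Flt1 and Emcn were lowest in liver. The level of Nostrin in intestine was above that of each of the 9 others in both libraries. Which cells of intestine carried it was not tested.

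Over the 20 libraries the log2 levels of pairs among the 9 others had a Pearson r of 0.47 to 0.95 (median 0.75, 36 pairs), and pairs with Nostrin had -0.07 to 0.42 (median 0.21, 9 pairs). Without lung and intestine, over 16 libraries, the pairs of others had 0.23 to 0.90 (median 0.62) and the pairs with Nostrin -0.41 to 0.22 (median -0.06). The log2 ratios of the 10 tissues were less alike: pairs of the 9 others had -0.54 to 0.92 (median 0.45) and pairs with Nostrin -0.53 to 0.45 (median 0.14). Libraries of one tissue, and values of one library, are not independent, so these are descriptions.

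Nos3, the enzyme that Nostrin binds, was low throughout, with 0.210 FPKM (control intestine) to 7.62 FPKM (DHEA heart) and a median of 1.95 FPKM. Heart was the tissue with its highest level, 7.41 FPKM in control and 7.62 FPKM in DHEA, a ratio of 1.03 (0.907 to 1.16). In ovary Nos3 was 6.13 FPKM in control and 2.11 FPKM in DHEA, so that control was 2.90-fold over DHEA (2.39 to 3.55), the most of any tissue. The mean of that pair, 4.12 FPKM, is under the minimum for the count. Uterus had 4.32 and 2.23 FPKM, control 1.93-fold over DHEA (1.6 to 2.33). In spleen Nos3 went the other way, from 1.25 to 1.98 FPKM, a fold of 1.58 (1.20 to 2.10). The intervals of the other 7 tissues spanned 1, among them lung, with 3.78 FPKM in control and 3.53 FPKM in DHEA. Nostrin and its partner were thus both lower in ovary and uterus, and had opposite signs in spleen.

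Kdr, the main signalling receptor for VEGF-A, was higher in DHEA in 8 of 10 tissues, with an interval that spans 1 in ovary and brain. Spleen had 6.03 FPKM in control and 13.8 FPKM in DHEA, a fold of 2.29 (2.12 to 2.47). Liver had 2.88 and 7.93 FPKM, a fold of 2.76 (2.48 to 3.07). Both were counted as 2-fold higher. Lung went from 56.2 to 84.9 FPKM, a fold of 1.51 (1.47 to 1.55), heart from 34.5 to 46.3 FPKM, 1.34 (1.29 to 1.39), and thymus from 1.21 to 2.24 FPKM, 1.85 (1.55 to 2.20). Uterus, with 15.3 FPKM in control and 10.3 FPKM in DHEA, and intestine, with 1.64 and 1.05 FPKM, were the tissues where Kdr was lower.

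Flt1, the VEGF receptor that binds the ligand tightly and signals weakly, had a pattern close to that of Kdr. It went from 21.5 FPKM in control to 31.4 FPKM in DHEA lung, a fold of 1.46 (1.41 to 1.51), and from 11.5 to 13.8 FPKM in heart, 1.20 (1.14 to 1.27). At lower levels it was 2.07 and 3.86 FPKM in spleen, 1.86-fold (1.66 to 2.09), 0.742 and 1.30 FPKM in thymus and 0.589 and 1.29 FPKM in liver, 2.19-fold (1.79 to 2.69). Uterus differed from Kdr, with 5.16 and 5.32 FPKM and a fold of 1.03 (0.953 to 1.12). Intestine had 2.63 and 1.35 FPKM, so that control was 1.95-fold over DHEA (1.67 to 2.28), and brain 9.14 and 7.23 FPKM, 1.26-fold (1.19 to 1.35).

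Tek ranged from 0.537 FPKM (DHEA intestine) to 118 FPKM (DHEA lung). In uterus it was 16.2 FPKM in control and 6.53 FPKM in DHEA, control 2.49-fold over DHEA (2.26 to 2.74), counted as 2-fold lower. In spleen it was 2.30 and 5.68 FPKM, a fold of 2.47 (2.08 to 2.95), and in liver 1.49 and 3.92 FPKM, a fold of 2.63 (2.14 to 3.25). These folds are as large as those of Kdr, but both pairs have means under 5 FPKM. Lung had 88.4 and 118 FPKM, 1.33-fold (1.30 to 1.38), and thymus 0.847 and 1.56 FPKM, 1.85-fold (1.39 to 2.48). Heart, with 19.0 and 18.8 FPKM, and ovary, with 9.12 and 9.05 FPKM, had intervals that span 1.

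Of the genes that hold the cells together, Cdh5 was the one with the highest level of all 10 genes, 309 FPKM in DHEA lung, against 192 FPKM in control lung, a fold of 1.62 (1.58 to 1.65). In uterus it was 70.1 FPKM in control and 25.7 FPKM in DHEA, control 2.73-fold over DHEA (2.59 to 2.87). Spleen went from 14.1 to 25.8 FPKM, 1.84-fold (1.70 to 1.98), and liver from 5.83 to 11.7 FPKM, 2.002-fold (1.78 to 2.25), which with the added 1 FPKM stayed short of the 2-fold count. Heart went the other way from Kdr and Flt1, with 93.8 and 80.6 FPKM, control 1.16-fold over DHEA (1.12 to 1.21).

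Pecam1, an adhesion molecule that platelets and many white blood cells also carry, was 153 FPKM in control and 192 FPKM in DHEA lung, 1.26-fold (1.23 to 1.28). Uterus had 44.1 and 23.5 FPKM, control 1.88-fold over DHEA (1.79 to 1.97). In intestine it was 2.78 FPKM in control and 8.26 FPKM in DHEA, 2.97-fold (2.57 to 3.44), the only gene counted as 2-fold higher there. White blood cell genes moved with it in intestine: 3 of 4 at 5 FPKM or more, of 10 listed, were 2-fold higher, against 11% of all genes. The list had a median log2 ratio of 1.41 and a summed level of 64.6 FPKM in control and 693 FPKM in DHEA. Ptprc (CD45) was 1.34 and 5.81 FPKM. Of the 10, 2 were at 0 in control and none in DHEA. The part of these cells in the Pecam1 value was not tested. Liver Pecam1 was 2.59 and 5.80 FPKM, 2.24-fold (1.94 to 2.58). White blood cell genes in liver had 0 of 4 past 2-fold, of 10 listed, where 1.65% of all genes were higher and 2.31% lower. These white blood cell genes had a median of 0.23, sums of 88.1 FPKM in control and 118 FPKM in DHEA and none at 0, and their part was not tested.

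Cldn5, the tight junction claudin of endothelium, showed the widest difference of the 10 genes in any tissue. It was 52.0 FPKM in control and 10.6 FPKM in DHEA uterus, control 4.93-fold over DHEA (4.34 to 5.6). Lung had 299 and 236 FPKM, 1.27-fold in the same direction (1.22 to 1.31), against the direction of Cdh5 and Pecam1 there. Brain, where Cldn5 seals the blood-brain barrier, had 30.7 and 27.8 FPKM, a fold of 0.905 (0.817 to 1.002). Spleen went from 14.9 to 21.5 FPKM, 1.45-fold (1.26 to 1.66). The fold of 2.34 in intestine rests on 10 and 21 reads.

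By the number of tissues Emcn was the gene most like Nostrin in direction, lower in DHEA in 8 of 10. Its interval spans 1 in heart, kidney, brain (0.822, 0.637 to 1.06) and liver (0.730, 0.445 to 1.18). The heart ratio was above 0 with libraries brought to the same summed FPKM and in the authors' deposited table. That of kidney was above 0 once centred on the median of the tissue. In uterus it was 14.8 FPKM in control and 4.55 FPKM in DHEA, control 3.26-fold over DHEA (2.94 to 3.62), and in lung 14.6 and 8.81 FPKM, 1.66-fold (1.52 to 1.81). Intestine had 1.396 and 0.688 FPKM, 2.03-fold (1.44 to 2.89), and spleen 0.663 and 0.390 FPKM, 1.70-fold (1.10 to 2.65). In spleen it was the only one of the 9 with a ratio under 0. Kidney had 14.3 FPKM in both libraries, with a fold of 0.997 (0.922 to 1.08), and heart 8.19 and 7.85 FPKM, 0.959 (0.863 to 1.07). Thymus, with 0.407 and 0.718 FPKM, 1.76-fold (1.19 to 2.65), was the tissue where Emcn was higher with an interval above 1.

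Vwf was higher in DHEA in 9 of 10 tissues, with an interval that spans 1 in thymus and intestine. In kidney the interval is only just above 1 (1.25, 1.002 to 1.55). Uterus had 3.57 FPKM in control and 6.32 FPKM in DHEA, 1.77-fold (1.64 to 1.91), while Cdh5, Tek, Emcn and Cldn5 were lower in the same pair. Lung had 34.3 and 49.0 FPKM, 1.43-fold (1.39 to 1.46), spleen 2.34 and 3.98 FPKM, 1.70-fold (1.54 to 1.88), and ovary 1.19 and 2.01 FPKM, 1.68-fold (1.47 to 1.93). Vwf is also made by megakaryocytes. In uterus 2 of 2 platelet and megakaryocyte genes at 5 FPKM or more, Pf4 and Itgb3, were 2-fold higher, against 7.85% of all genes. The 9 such genes in the table had a summed level of 17.3 FPKM in control and 39.6 FPKM in DHEA, with 2 of the 9 at 0 in each library. Macrophages carry Pf4 too. The part of these cells in the Vwf value was not tested. In lung 0 of 3 such genes were 2-fold higher or lower, against 0.796% higher and 0.872% lower of all genes, and the sums were 39.1 and 40.8 FPKM.

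Counted by tissue, few of the 10 genes passed the 2-fold rule. In lung 9 of 10 genes were at 5 FPKM or more, and 0 were 2-fold higher and 0 lower, where 0.796% of the 7913 genes at that level were higher and 0.872% lower. In heart 0 of 9 were higher and 0 lower, against 0.48% and 0.338% of all genes. In uterus 4 of 7 were lower (Cdh5, Tek, Emcn and Cldn5) and 0 higher, against 10.1% lower and 7.85% higher of all 7965 genes. Ovary had 0 of 6 in either direction, against 1.98% higher and 2.63% lower, and kidney 0 of 7, against 1.12% and 0.515%. Brain had 0 of 5, against 5.37% higher and 5.67% lower.

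In spleen 1 of 4 was higher (Kdr) and 0 lower, against 5.73% higher and 0.939% lower of all genes. Thymus had 0 of 2, against 1.18% higher and 0.142% lower. Liver had 1 of 2 higher (Kdr) and 0 lower, against 1.65% and 2.31%, and intestine 1 of 2 higher (Pecam1) and 0 lower, against 11% and 3.38%. The genes were listed with these contrasts known, so nothing is read from the counts against those shares. Nostrin was in the count in lung and intestine only, and passed in neither. With each library scaled to the same summed FPKM, Kdr in liver and Pecam1 in intestine kept ratios of 1.18 and 1.28 but dropped out of the count, since their scaled means fell under 5 FPKM, and Tek in uterus, at -0.99, came just short of 2-fold.

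Uterus was the tissue with the most genes of the broader endothelial list past the 2-fold rule. Of the 30 genes of the broader endothelial list, 24 were at 5 FPKM or more in uterus. Of these 10 were 2-fold lower and 0 higher, against 10.1% lower and 7.85% higher of all genes. The list's genes at 1 FPKM or more had a median log2 ratio of -0.63, and all genes at 5 FPKM or more -0.12. Sox17, a transcription factor of arterial endothelium that uterine epithelium also expresses, was 57.0 FPKM in control and 8.12 FPKM in DHEA, Sox18 33.3 and 10.5 FPKM, the junction gene Esam 42.3 and 13.6 FPKM and Myct1 10.8 and 3.11 FPKM. Of the 18 genes of VEGF, angiopoietin, Notch and apelin signalling, 3 of 8 at 5 FPKM or more were lower: the apelin receptor Aplnr (42.2 and 13.0 FPKM), the Tek relative Tie1 (24.5 and 8.54 FPKM) and the Notch ligand Dll4 (12.3 and 4.53 FPKM). Some vessel lists went the same way. Arterial genes were 2-fold lower in 2 of 6 at 5 FPKM or more (Sox17 and Dll4) and 0 higher. Lung capillary genes were lower in 2 of 7 (Car4 and Aplnr) and 0 higher. Blood-brain barrier genes were mixed, with 3 of 8 higher and 4 lower. The sinusoidal, venous and lymphatic lists had more genes higher than lower. Of the sinusoidal genes 3 of 3 at 5 FPKM or more were higher, Fcgr2b (2.44 and 12.2 FPKM), Stab1 (5.71 and 17.1 FPKM) and Lyve1 (5.23 and 14.7 FPKM), which macrophages also express. Of the venous and adhesion genes 2 of 4 were higher, Lrg1 (3.72 and 79.4 FPKM) and Icam1 (3.43 and 8.12 FPKM), and 1 lower, Nr2f2 (41.7 and 20.1 FPKM). Of the lymphatic genes 1 of 2 was higher, Lyve1, and 0 lower. Other cell types moved in the same pair. Fat cell genes were 2-fold lower in 9 of 9 at 5 FPKM or more, of 10 listed, with sums of 1393 FPKM in control and 208 FPKM in DHEA and Ucp1 at 0 in control. Smooth muscle genes were higher in 6 of 10, with sums of 2293 and 6218 FPKM and none at 0, and white blood cell genes in 5 of 5, of 10 listed, with sums of 205 and 504 FPKM and none at 0. Their part in the lower vessel genes was not tested.

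In spleen 5 of 18 broader endothelial genes at 5 FPKM or more were 2-fold higher and 0 lower. Of all genes 5.73% were higher and 0.939% lower. The list's genes at 1 FPKM or more had a median of 0.70, and all genes at 5 FPKM or more -0.03. Mmrn2 was 5.27 FPKM in control and 12.8 FPKM in DHEA, the vascular phosphatase Ptprb 4.22 and 10.5 FPKM, and Plvap, of the diaphragms of fenestrated capillaries, 47.8 and 98.7 FPKM. Tal1, 8.90 and 44.5 FPKM, is also a gene of red cell precursors. Stab2, a scavenger receptor of sinusoids, was 6.84 and 29.8 FPKM. Red cell precursor genes were 2-fold higher in 7 of 8 in the same pair, with a median of 2.53, sums of 2527 FPKM in control and 18220 FPKM in DHEA and none at 0. Their part in the endothelial values was not tested.

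In liver 3 sinusoidal genes were 2-fold higher. Of 9 sinusoid genes, 6 were at 5 FPKM or more, 3 of them 2-fold higher and 0 lower. Of all genes 1.65% were higher and 2.31% lower. The sinusoid genes at 1 FPKM or more had a median of 1.03, and all genes at 5 FPKM or more 0.03. The lectin Clec4g was 8.29 FPKM in control and 18.5 FPKM in DHEA, 2.23-fold (1.96 to 2.52), the DNase Dnase1l3 5.61 and 19.9 FPKM, 3.56-fold (3.23 to 3.92), Oit3 5.18 and 12.4 FPKM, and Stab2 3.66 and 8.28 FPKM. Nostrin, with 4.95 and 2.61 FPKM, went the other way in that pair. Red cell precursor genes were 2-fold higher in 3 of 3 in liver, of 8 in the table, with a median of 1.12 and sums of 35.1 FPKM in control and 139 FPKM in DHEA, and their part was not tested. Thymus had 0 of 6 broader endothelial genes past 2-fold, where 1.18% of all genes were higher and 0.142% lower. Its median over the list's genes at 1 FPKM or more was 0.39. Fat cell genes were 2-fold higher there in 9 of 9, with sums of 115 and 538 FPKM and none at 0. Their part was not tested.

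In brain 0 of 9 genes of the blood-brain barrier passed the 2-fold rule in either direction. The 11 genes of the list at 1 FPKM or more had a median of -0.54, against -0.06 for all genes at 5 FPKM or more. Of the latter 5.37% were 2-fold higher and 5.67% lower. Of the 9, the 4 with the largest ratios were lower in DHEA. The tight junction gene Ocln was 7.80 FPKM in control and 3.49 FPKM in DHEA, and the drug efflux pump Abcb1a 8.30 and 4.87 FPKM. The glucose transporter Slc2a1 was 34.8 and 21.8 FPKM and Ly6a 38.9 and 25.4 FPKM. In the same pair 2 of 6 brain marker genes were 2-fold higher and 2 lower, with sums of 1627 and 1314 FPKM and none at 0. Of 6 liver marker genes 1 of 1 at 5 FPKM or more was lower in brain, with sums of 1219 and 210 FPKM and 0 and 3 genes at 0. That 1 gene held most of both sums, and only 2 of the 6 averaged 1 FPKM or more. Red cell precursor genes were lower in 2 of 2, of 8 in the table, with sums of 103 and 29.99 FPKM and none at 0. Their part in the vessel genes was not tested. In ovary 2 of 12 genes of the VEGF and angiopoietin list were 2-fold higher and 0 lower, against 1.98% and 2.63% of all genes, and both were angiopoietins. Angpt4, a ligand of Tek, was 1.42 FPKM in control and 10.8 FPKM in DHEA, and Angpt2, which can block Tek, 8.65 and 22.2 FPKM, while Tek was 9.12 and 9.05 FPKM. The interval of the Tek ratio spans 1. Angpt1, the activating ligand of Tek, was 4.12 and 9.01 FPKM. The adhesion gene Vcam1 was 4.83 and 26.6 FPKM in the same pair.

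**Figure D4:**
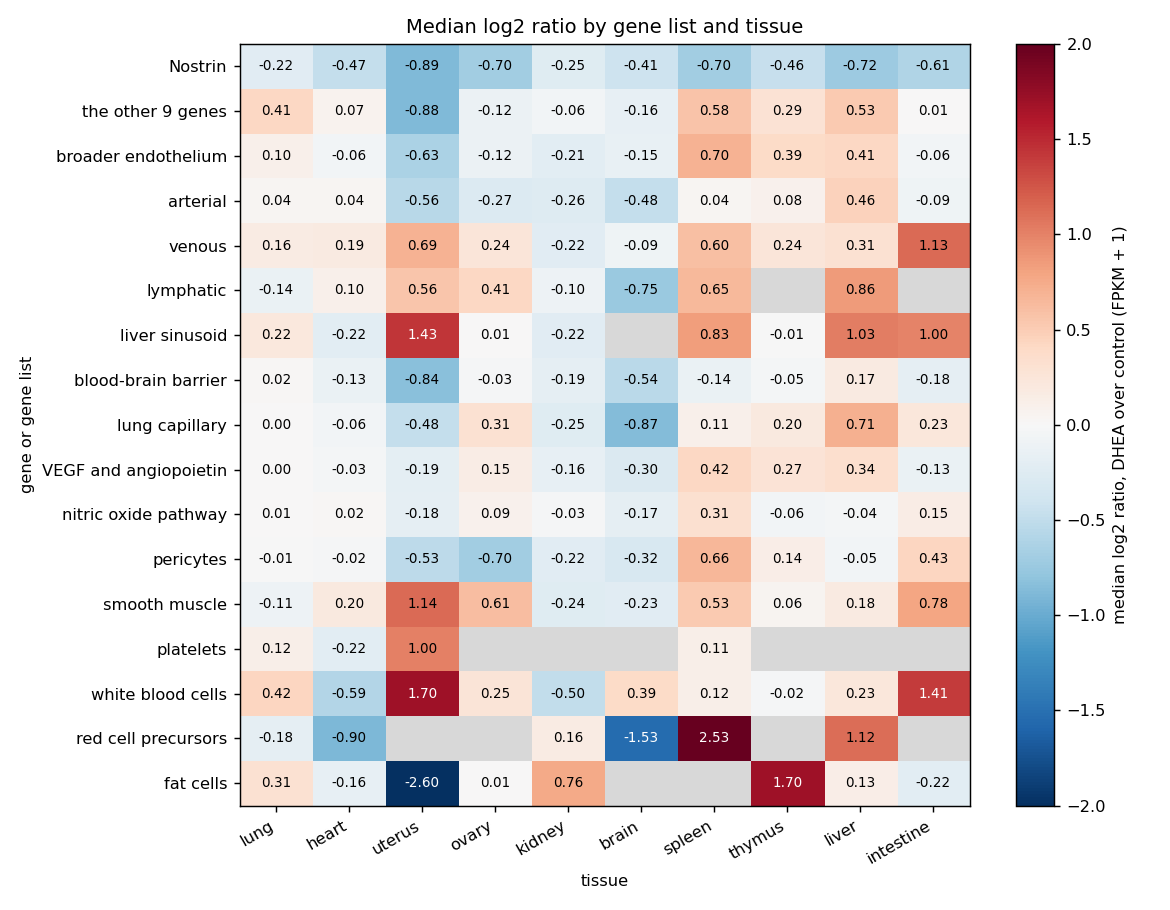
Median log2 ratio of FPKM + 1, DHEA over control, for Nostrin, the 9 other genes and lists of vessel and other cell types (rows) in 10 tissues (columns); grey marks lists with too few genes at 1 FPKM or more, and the colours end at -2 and 2. The Nostrin row is below 0 in all tissues, from -0.89 to -0.22, and the row of the 9 others changes sign, from -0.88 in uterus to 0.58 in spleen.

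The nitric oxide pathway around Nos3 and Nostrin, 27 genes with synthases, cofactor enzymes, arginine transporters and the cyclic GMP branch, had medians of -0.18 (uterus) to 0.31 (spleen). In spleen 4 of 17 genes at 5 FPKM or more were 2-fold higher and 0 lower: the arginine transporter Slc7a2 (1.86 and 10.7 FPKM), Gch1 (3.23 and 9.47 FPKM), which makes the synthase cofactor tetrahydrobiopterin, the guanylate cyclase subunit Gucy1a1 (5.76 and 15.1 FPKM) and the caveola gene Cav1 (7.31 and 15.7 FPKM), against 5.73% and 0.939% of all genes. Uterus had 1 of 19 higher, Arg1, an arginase that uses up arginine, at 1.06 FPKM in control and 305 FPKM in DHEA, and 2 lower, the cyclic GMP phosphodiesterase Pde5a (23.5 and 5.74 FPKM) and Ddah2 (62.4 and 20.9 FPKM), which breaks down an inhibitor of the synthases, against 7.85% higher and 10.1% lower of all genes. Myeloid cells also express Arg1. In liver 1 of 12 was lower, Slc7a2 (109 and 34.8 FPKM), and 0 higher, against 2.31% and 1.65% of all genes. Lung had 0 of 19 and heart 0 of 16 in either direction. Of all genes 0.796% were higher and 0.872% lower in lung, and 0.48% and 0.338% in heart. Nosip, another protein that binds Nos3, was 19.6 FPKM in control and 10.5 FPKM in DHEA uterus and had log2 ratios of -0.18 (lung) to 0.15 (intestine) in the other 9 tissues.

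The 5 genes whose level was most like that of Nostrin over the 20 libraries, by Pearson r of log2(FPKM + 1) among 14833 genes, were Foxf1 (0.92), Pon2 (0.92), Chad (0.88), Fendrr (0.86) and Epha2 (0.85). Foxf1, a transcription factor of lung and gut mesenchyme and lung endothelium, was 135 FPKM in control lung and 7.58 FPKM in control intestine. Fendrr is the long noncoding RNA next to Foxf1. The other 9 endothelial genes ranked from 998 (Vwf) to 8032 (Nos3) in likeness of level. The 5 genes whose log2 ratio was most like that of Nostrin over 10 tissues, among 5002 genes, were Cers6 (0.84), Tmem120a (0.82), Plpp6 (0.80), Med14 (0.80) and Cyb5b (0.79). These ratios rest on 10 points and uterus is the lowest of each of the 5, as it is of Nostrin.

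Cers6, a ceramide synthase, is also the nearest protein-coding gene on one side of Nostrin in the reference, with noncoding genes between. It was lower in DHEA in 5 of 10 tissues, with 11.4 FPKM in control and 4.14 FPKM in DHEA uterus and 2.32 and 0.903 FPKM in liver, and it was higher in lung (4.74 and 6.84 FPKM) and kidney (8.85 and 11.1 FPKM). On the other side lies Spc25, a kinetochore gene, lower in 4 of 10 tissues with an r of -0.48 to Nostrin, followed by G6pc2, at or near 0 in most libraries, and by Abcb11, the bile salt pump, with 138 FPKM in control and 149 FPKM in DHEA liver. A noncoding gene of the reference, Gm52516, overlaps Nostrin. It was not analysed here, and as the strand setting of the counts is not given, its reads and those of Nostrin cannot be told apart.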

How the data were processed

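Bulk RNA-seq of 20 libraries, 1 per tissue and treatment, was analysed from the table of FPKM values that the authors deposited. The submitters' processing notes name HISAT2 2.0.5 with the builds mm39 and hg38. No counting tool, annotation or strand setting is given in the sources used here. The sample descriptions also name a single-cell platform while the series text calls the libraries bulk. A second deposited table holds the authors' log2 fold values and was used as an alternative. It differs from the log2 ratio of FPKM by 1 constant in each tissue, near that of the summed FPKM, control over DHEA, which is 0.23 in lung and 0.24 in uterus.

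From the FPKM table, 57 rows of 28 repeated symbols were left out, and for all 24769 remaining genes the values were whole multiples of 1 read at a relative tolerance of 1e-09, which gave the reads per gene and library. On simulated data 99.9% of 20088 genes seen in 5 or more libraries were recovered. Ratios used a pseudocount of 1 FPKM, and genes were counted at 2-fold where both libraries averaged 5 FPKM or more. Counting intervals are exact (Clopper-Pearson) for 1 gene and by the delta method for Nostrin relative to the others. They cover counting error only. Samples were grouped by the labels' tissue and treatment. Python 3.11.15 was used with numpy 2.4.6, scipy 1.17.1, pandas 2.3.3 and matplotlib 3.10.9. Promoters and the order of genes come from RefSeq tables of GRCm38.p6. No protein sequences were used.

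The 10 genes, the 30 lists and the tests were chosen with earlier results of these data known. All 10 genes are named. Also named are the 5 genes most like Nostrin in level and in ratio, up to 4 genes of a list with the largest ratio in a tissue at 5 FPKM or more, and the neighbours of Nostrin. Markers of other cell types, Nosip, Ptprc, Angpt1 and the genes lower in all tissues were named after their values were seen.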

Additional observations from a re-analysis of the deposited data

Results flagged for a closer look

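The 9 endothelial genes other than Nostrin went opposite ways in thymus and uterus. In thymus all 9 were higher in the DHEA library, with a median log2 ratio of 0.29, while in uterus 7 of 9 were lower, with a median of -0.88. The opposite directions drew attention to this pair of tissues. With 1 library per group the difference between the tissues was not tested.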

How the results depend on the processing

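No paired analysis was possible because each group holds 1 library and no result comes from a test. Of 119 values of the comparisons under other settings, 96 moved by less than their counting interval (counts by less than 1.5 times, means over tissues by less than 1 SD) and 23 by more. Those 96 include values that could not count as moved. They are the means with 1 tissue left out, which cannot shift by 1 SD, and the numbers of tissues with Nostrin lower, which were given no limit. Of the 103 that are log2 values 2 changed sign, both medians of the 9 others near 0 under centring, kidney (0.00498) and intestine (-0.10). Of 400 ratios of single genes 78 moved beyond their interval and 15, of 10 ratios whose counting intervals include no change, changed sign. Nostrin was lower in 10 of 10 tissues with each scaling, with a pseudocount of 0.1 FPKM and in the authors' deposited table, a check that was added after seeing the data. With equal sums and in the deposited table the lung value of Nostrin was -0.0022, which is near no difference. With each library scaled to the same summed FPKM, the median log2 ratio of the 9 other genes was 0.64 in lung, 0.15 in heart and -0.65 in uterus, and 1 gene was 2-fold higher instead of 3 (counted over all tissues), as the scaled means of Kdr in liver and Pecam1 in intestine were under 5 FPKM. Centring each tissue on its median gave 0.00905 in heart and -0.76 in uterus. In the authors' deposited table, which has no added pseudocount of 1 FPKM, the medians were 0.65 in lung, 0.15 in heart, -0.71 in uterus, -0.14 in kidney, -0.25 in brain, 0.76 in spleen, 0.44 in thymus and 1.13 in liver, and Nostrin minus that median was -2.04 in liver. A pseudocount of 0.1 FPKM gave medians of -0.26 in brain, 0.74 in spleen, 0.44 in thymus and 0.99 in liver, and Nostrin minus the median of -1.89 in liver. Nostrin minus the median has wide counting intervals, and within them it moved by over 1.5 times with that pseudocount in uterus (-0.36), kidney (-0.43), brain (-0.38) and thymus (-1.31), in the deposited table in heart (-0.85), uterus (-0.40), kidney (-0.50), brain (-0.41) and thymus (-1.41), and with equal sums in uterus (-0.11). Against the mean of the 9 instead of their median, Nostrin was -0.44 in lung and -0.03 in uterus. At 1.5-fold, 7 were higher and 7 lower over all tissues instead of 3 and 4. Leaving out 1 tissue in turn moved the mean of Nostrin minus the median from -0.68 to -0.54. Low counts limit Nostrin in kidney (33 and 19 reads) and thymus (47 and 22 reads). In intestine they limit Nos3, Tek, Vwf and Cldn5, with 10 to 49 reads.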

Other observations

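The genes lower in the DHEA library of all 10 tissues included other vessel and nitric oxide genes besides Nostrin. Dll4, the Notch ligand of arterial and sprouting endothelium, was 12.3 FPKM in control and 4.53 FPKM in DHEA uterus, 5.59 and 2.28 FPKM in ovary and 25.5 and 24.6 FPKM in lung, with a mean log2 ratio of -0.36 over the tissues. With each library scaled to the same summed FPKM its lung ratio was 0.17, so that Dll4 was lower in 9 of 10 tissues, while Gchfr and Sertad1 stayed lower in 10. Gchfr encodes the protein that restrains Gch1, the enzyme of tetrahydrobiopterin synthesis. It was 140 FPKM in control and 121 FPKM in DHEA liver, 24.5 and 23.97 FPKM in kidney and 3.97 and 2.20 FPKM in heart, with a mean of -0.42, and it was at 0 in DHEA ovary. Gchfr rests on few reads in several tissues, with 4 in control and 2 in DHEA uterus and 4 and 0 in ovary. Thymus had 15 and 10 reads and lung 20 and 9. Sertad1, a regulator of transcription and of the cell cycle, had a mean of -0.53, next to the -0.54 of Nostrin, with 18.8 and 9.58 FPKM in lung and 21.4 and 14.6 FPKM in intestine. These 3 genes were picked out after their values were seen, and the cause of the shared direction was not tested.

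Of the arterial genes at 5 FPKM or more in heart, 1 of 6 was 2-fold higher, the gap junction gene Gja5, at 3.07 FPKM in control and 7.95 FPKM in DHEA, against 0.48% of all genes. In brain 1 of 4 was lower, the guidance receptor Unc5b, at 20.2 and 6.45 FPKM, against 5.67% of all genes. Ackr1, a chemokine receptor of venules, was 41.8 and 19.6 FPKM in brain. The capillary gene Car4, a carbonic anhydrase that epithelia also express, was 14.2 FPKM in control and 0.224 FPKM in DHEA uterus, and went the other way in intestine, with 7.72 and 27.4 FPKM.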
